A study of Medicago sativa with 9 samples.

Results

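Class III peroxidases are secreted, heme-containing plant enzymes that use hydrogen peroxide to oxidise phenolic compounds. In leaves and stems they cross-link monolignols into lignin and proteins into the cell wall, and they can also make reactive oxygen species. Plants carry large families of them, often as rows of neighbouring genes with similar sequence. The genes described here were chosen by description, as any gene whose deposited description named a peroxidase, a cationic or anionic peroxidase or a class III peroxidase, and no ascorbate or glutathione peroxidase or peroxiredoxin. The deposited table lists 164632 genes, of which 476 matched. Of these, 93 reached an FPKM (fragments per kilobase of gene, relative to the mapped fragments of the library) of at least 1 in at least 3 of the 9 libraries, like 50878 genes of the whole table. These 93 are called members below.

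The libraries were made from alfalfa (Medicago sativa) leaves. Alfalfa is a forage legume, listed with 4 copies of each of its 8 numbered chromosomes in the deposited table. Each time, 0, 12 or 48 h into a selenite (Se(IV)) treatment of 100 mg per kg, has 3 libraries. The labels name no cultivar, plant age or hour of day, and the samples hold no untreated leaves of 12 or 48 h, so that selenite and the hour of sampling cannot be told apart. Nor do the labels tie each library to a plant of its own, so p-values measure a spread that may be technical.

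The label was checked against the descriptions. Of the 93 members, 88 are described as peroxidases and 5 as protein OVEREXPRESSOR OF CATIONIC PEROXIDASE 3 (OCP3), which in Arabidopsis is a homeodomain regulator and not a peroxidase. They matched by wording and are reported on their own below. The deposited annotation gave a term for peroxidase activity to 92 members, the phenylpropanoid pathway to 83, heme binding to 67, an extracellular location to 49, the cell wall to 35 and lignin to 18. Another 4 members are described as putative peroxidase and acid phosphatase at once. The members carry 24 descriptions and lie on chromosomes 1 (6 genes), 2 (27), 3 (19), 5 (14), 6 (10), 7 (4) and 8 (8), with 5 on unplaced contigs. Of the 88 on numbered chromosomes, 64 stood in a row with another matching gene at most 100000 bases away. Gene spans ran from 334 to 13151 bases with a median of 2663.

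The other 383 matching genes did not pass the filter, and 273 of these had no count in any library. Those nearest to the limit inside it were peroxidase 11 isoform X1 (MS.gene068824), peroxidase N (MS.gene24863) and a peroxidase P7 (MS.gene049372), whose limiting FPKM values, those that are exceeded in only 2 libraries, were 1.0, 1.0 and 1.05. Just outside it, 27 genes reached an FPKM of 1 and 2 reached 10. A cationic peroxidase 1 isoform X1 (MS.gene87055) stood at 13.2 FPKM in 0 h replicate 1 and at 0 in the other 8 libraries. A putative peroxidase (MS.gene20682) stood at 10.4 and 10.5 in 48 h replicates 1 and 3, at 0.277 in 12 h replicate 1 and at 0 elsewhere. A member that passed through 1 time alone had to differ between times, so counts over the 93 describe those that passed and not the whole family.

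Libraries held 39936347 to 56137145 counts. Scaling factors by trimmed mean of M values (TMM) were 1.20 to 1.27 at 12 h, 0.856 to 0.988 at 0 h and 0.835 to 0.933 at 48 h, and without them the median log2 change of all genes would be 0.39 at 12 h against 0 h, -0.14 at 48 h against 0 h and -0.54 at 48 h against 12 h. Deposited FPKM values carry no such factor, while the log2 changes below do. The libraries also differed in their use of the chromosome copies. Over 2927 groups with 1 gene on each copy, 8.66% to 8.92% of reads lay on other copies between any pair of 12 h libraries, and 9.60% between 48 h replicates 1 and 3. For all other pairs, those of 0 h included, it was 19.7% to 23.5%. With the 12 h libraries summed to 1 column and 48 h replicates 1 and 3 to another, edgeR called none of the members in any comparison. At an unadjusted p under 0.05 that fit had 10 members at 12 h and 7 at 48 h, both against 0 h, and 11 from 12 h to 48 h. It was run with edgeR alone. Each call below thus counts these libraries as samples of their own.

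The mean summed level of the 88 peroxidase genes was similar at the 3 times once library composition was taken into account. Their summed FPKM was 665, 1052 and 690.1 in the 0 h libraries, 1042, 1069 and 1011 at 12 h, and 872, 549.9 and 915 at 48 h. The 12 h libraries lay close together, while 0 h replicate 2 was the highest of its time and 48 h replicate 2 the lowest of all 9. Divided by the TMM factor, the sums were 862 ± 221 at 0 h, 847 ± 39.6 at 12 h and 886 ± 198 at 48 h (SD, n = 3 each), so the means differed by less than the SD at 0 h. The sums were not tested, and a change smaller than this spread would not be seen. In bulk leaf RNA, fewer cells of a type and less RNA per cell cannot be told apart. The same holds for every level below.

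A few descriptions made up most of that sum. Peroxidase 42, with 3 genes on chromosome 8, held on average 27.2% of the peroxidase FPKM at 0 h, 23.6% at 12 h and 13.7% at 48 h. The peroxidase 55 genes on chromosome 7 held 17.6%, 4.10% and 20.8%, and the 12 genes of peroxidase 4 held 10.8%, 10.4% and 17.9%. Peroxidase 15 isoform X1, of which there are 4 genes on chromosome 2, held 8.51%, 16.8% and 13.6%. The shares of peroxidase P7 (16 genes) were 11.8%, 12.3% and 6.64%, those of peroxidase1B 1.93%, 1.71% and 8.19%, and those of peroxidase2 0.580%, 8.03% and 0.619%. Shares were not tested.

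**Figure D1:**
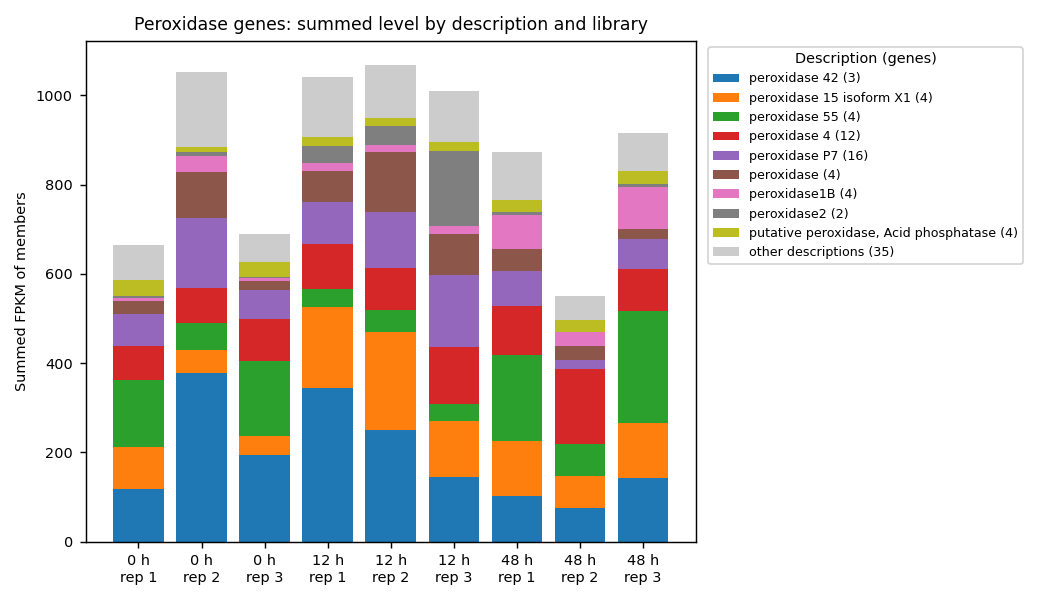
Stacked bars give the summed FPKM (y axis, linear from 0) of the 88 members described as peroxidases in each of the 9 libraries (x axis), split by description, with the number of genes in brackets. The peroxidase 55 part is 38.1 to 50.4 in the 12 h libraries and 60.9 to 251 in the others, and the peroxidase2 part is 37.6 to 167 at 12 h and 8.64 or less in the others.

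Levels of single members differed widely. Mean FPKM over the 9 libraries ran from 0.458 to 103 with a median of 5.31, against 3.54 for all tested genes. It was under 5 for 45 members, at least 10 for 30 and at least 50 for 4. The highest was a peroxidase 42 (MS.gene61981, chromosome 8.2, 2152233 to 2154303), at 41.2, 185 and 109 FPKM at 0 h, 196, 143 and 81.9 at 12 h and 58.3, 29.7 and 78.9 at 48 h. Its values at 0 h overlapped those of both later times, while all 12 h values lay above all of 48 h, by a small margin that was gone on TMM-scaled counts. Summed over its 3 genes, peroxidase 42 stood at 229.6 ± 134.0, 246.5 ± 99.5 and 107 ± 34.4 FPKM, with log2 changes of -0.33 ± 0.46 (SE) at 12 h against 0 h and -1.04 ± 0.46 at 48 h against 0 h, neither of which passed (edgeR adjusted p = 0.688 and 0.213).

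Spread between libraries of one time was wide in this family. The median coefficient of variation of a member was 81.3% at 0 h, 30.2% at 12 h and 60.9% at 48 h, against 49.6%, 26.5% and 45.0% over all tested genes. For 21 members (22.6%) the highest of the 9 libraries was 0 h replicate 2, which was the highest for 9.70% of tested genes. For 30 members 48 h replicate 2 was the lowest library or tied for it, among them the 15 members with no count there. The like share of all tested genes was not counted, so this cannot be read as a trait of the family. A peroxidase 25 group on chromosome 8 shows the pattern most plainly, with 60.8 FPKM in 0 h replicate 2 against 7.42 and 2.35 in the other 0 h libraries and 0.793 to 5.01 at the later times. In Arabidopsis the gene of that name takes part in stem lignin formation. Its summed log2 change was -3.33 ± 1.12 at 12 h and -4.14 ± 1.16 at 48 h against 0 h (edgeR adjusted p = 0.0834 and 0.0674).

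**Figure D2:**
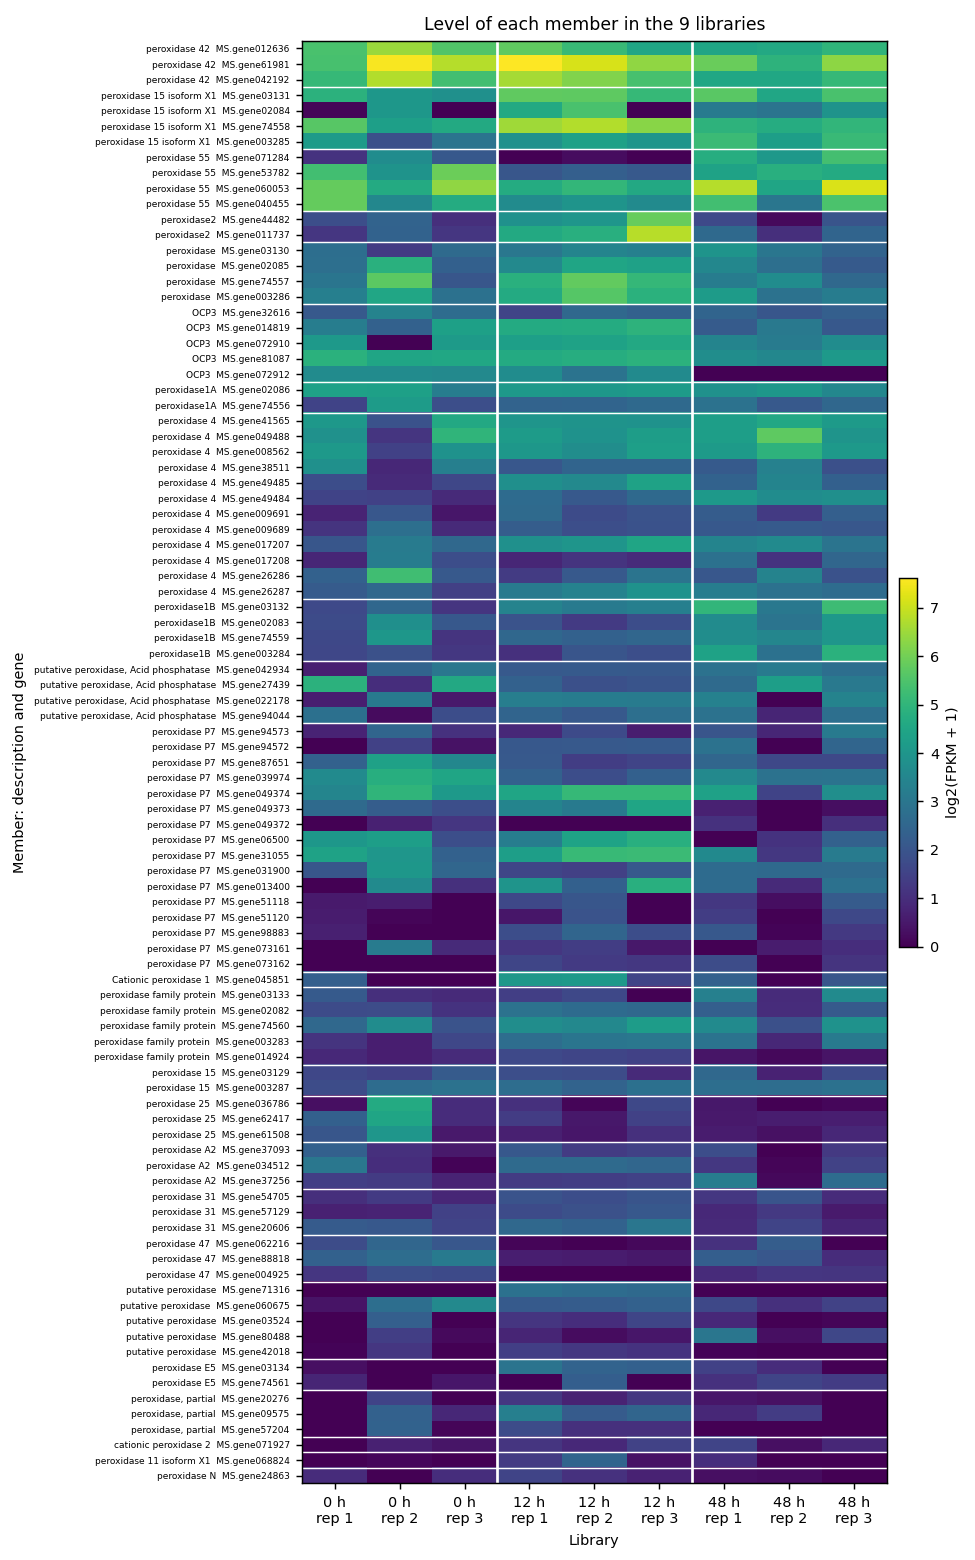
Each row is 1 of the 93 members, grouped by description from the highest to the lowest mean level, each column is 1 library, and colour gives log2(FPKM + 1). The 3 libraries of 12 h look alike, while 0 h replicate 2 and 48 h replicate 2 differ from the other libraries of their time in many rows.

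The comparison of 12 h with 0 h asks what had changed early in the treatment, that of 48 h with 0 h what was changed later, and that of 48 h with 12 h what moved in between. Counts were tested gene by gene with edgeR's quasi-likelihood F-test over all 9 libraries, and a gene is called at a Benjamini-Hochberg adjusted p of 0.05 or less over the 50878 genes tested. At 12 h against 0 h, 3 members rose and 4 fell, 7 of 93 or 7.53%, where 5.88% of all tested genes were called (1.58% higher and 4.29% lower). At 48 h against 0 h 1 rose and 1 fell, 2.15% of members against 1.14% of tested genes (0.647% higher and 0.497% lower). At 48 h against 12 h 7 rose and 5 fell, 12.9% of members against 10.6% of tested genes (6.96% higher and 3.61% lower). With library totals alone as scaling, 5 rose and 9 fell in this last comparison. On log2(FPKM + 1), which carries no TMM factor, limma called 13 higher and 6 lower at 12 h against 0 h, 3 higher and 2 lower at 48 h against 0 h, and 6 higher and 16 lower at 48 h against 12 h.

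The shares of called members were thus near those of the whole table. At an unadjusted p under 0.05 stood 29.0%, 21.5% and 28.0% of members, against 21.7%, 16.4% and 27.3% of tested genes. The median log2 change of members was 0.25, 0.03 and 0.03 in the 3 comparisons, and that of all tested genes -0.01, -0.05 and -0.05. The first of these rested on single libraries, being 0.64 without 0 h replicate 2, 0.10 without 0 h replicate 3, and 0.09 and 0.11 without 12 h replicates 2 and 3. The second ran from -0.25 without 48 h replicate 1 to 0.43 without 0 h replicate 2, and the third from -0.19 without 48 h replicate 1 to 0.28 without 48 h replicate 2, so neither has a direction. With library totals alone as scaling the medians were 0.64, -0.05 and -0.44, beside the 0.39, -0.14 and -0.54 of all genes. Library by library, the median of members against the 0 h mean was 0.46, 0.46 and 0.26 at 12 h, and 0.73, -0.31 and 0.13 at 48 h, so the 48 h libraries stood on both sides of 0. Ranges of the 3 libraries, read on TMM-scaled counts, did not overlap at 12 h against 0 h for 21 members that were higher and 10 that were lower (19% and 17.8% of tested genes). At 48 h against 0 h they did not overlap for 9 higher and 6 lower members (11.2% and 11.8%), and at 48 h against 12 h for 20 higher and 24 lower (20.8% and 23.7%).

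Because near-identical chromosome copies can exchange reads, counts were also summed over all genes of a description on a numbered chromosome, which put the members in 32 groups called summed copies. Unplaced genes are groups of their own. Groups of more genes than the 4 copies of a chromosome, up to 22, hold different genes of 1 description and not copies alone. At 12 h against 0 h 2 of the 32 rose and 2 fell, where 14.1% of 18292 such groups of the table were called (5.31% higher and 8.83% lower). At 48 h against 0 h 1 fell (7.63% of groups called, 3.89% higher and 3.74% lower), and at 48 h against 12 h 3 rose and 4 fell (22.7%, or 12.9% higher and 9.86% lower). Ranges of the 3 libraries did not overlap at 12 h against 0 h for 11 groups that were higher and 2 that were lower (20.2% and 19.9% of all groups). At 48 h against 0 h this was so for 1 higher and 3 lower groups (13% and 14.5%), and at 48 h against 12 h for 6 and 8 (22.5% and 25.4%). Their median log2 change was 0.37, 0.19 and -0.62 in the 3 comparisons, against 0.00, -0.03 and -0.06 over all groups. With library totals alone as scaling the counts were 5 higher and 1 lower at 12 h against 0 h, and 2 higher and 6 lower at 48 h against 12 h. The test was also run on simulated counts, for single genes and not for summed copies. It recovered none of the 4-fold changes (0%), 16.4% of those of 16-fold and 47% of those of 64-fold at 12 h against 0 h. At 48 h against 0 h these shares were 0%, 10.4% and 40.9%. Only 200 of 50878 genes were changed there, fewer than the 2991 and 582 called in these comparisons. The cut-off was thus stricter in the simulation, and its shares do not measure the power on the data. A member without a call may still have changed.

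**Figure D3:**
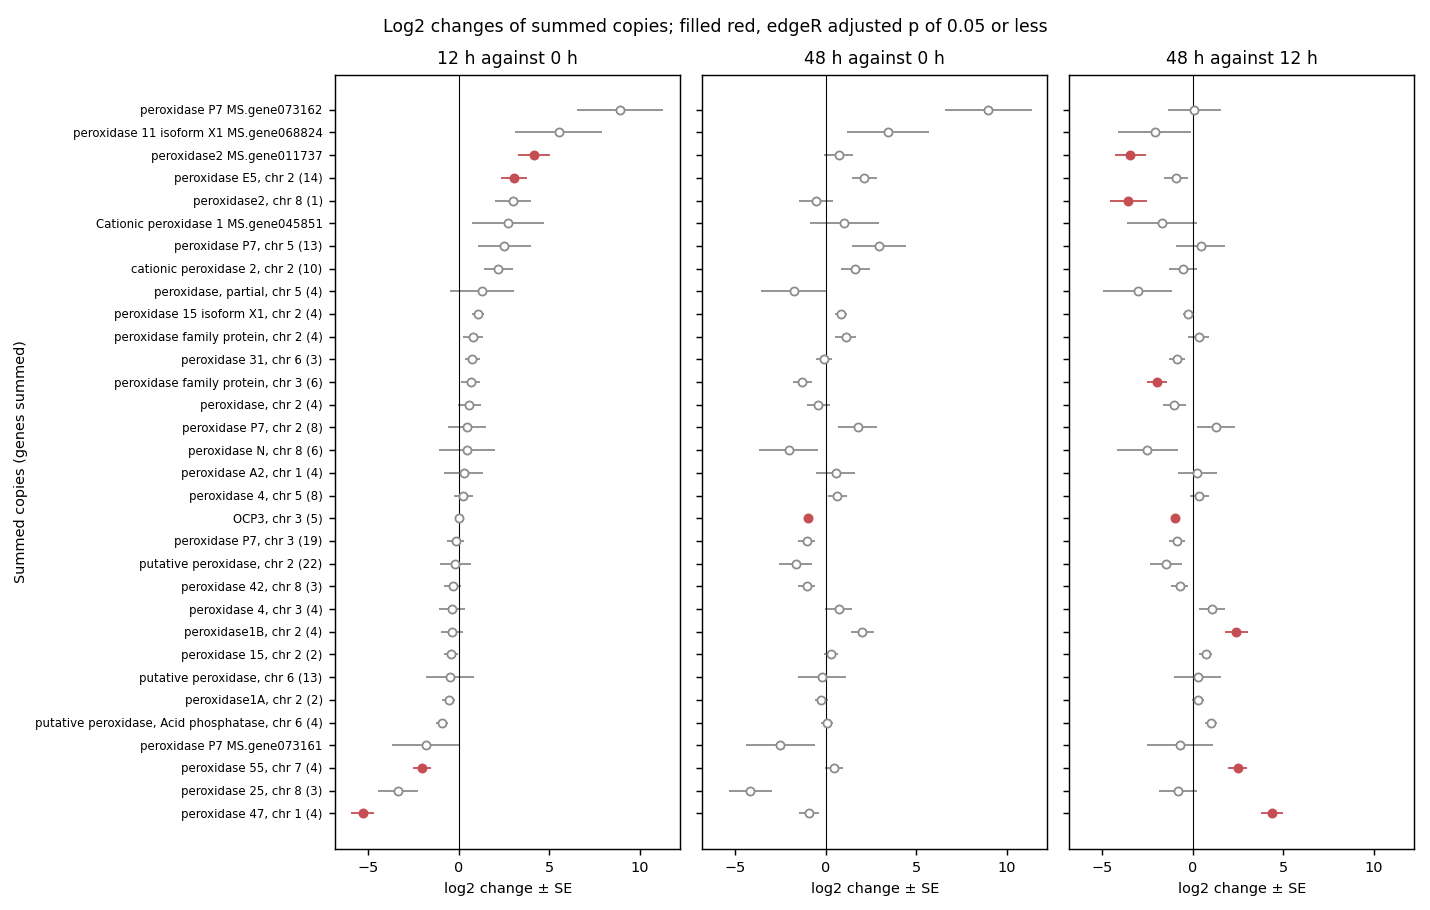
Points are log2 changes of the 32 summed copies, with bars of 1 SE, in the 3 comparisons (x axes, log2), in the order of the change at 12 h against 0 h, and filled red points passed at an adjusted p of 0.05 or less. The peroxidase 47 group is lowest at 12 h against 0 h (-5.29) and highest at 48 h against 12 h (4.38), and the changes of P7 gene MS.gene073162, which had no count at 0 h, depend on the prior count.

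Peroxidase 47 was nearly lost from the leaves at 12 h and back at 48 h. The Arabidopsis enzyme of that name is known from vessel cells, where it takes part in lignin formation. The summed copies on chromosome 1 stood at 7.94, 12.9 and 13.4 FPKM at 0 h, at 0.629, 0.499 and 0.525 at 12 h, and at 5.91, 8.31 and 2.22 at 48 h. All 12 h libraries lay below all others, while the ranges of 0 h and 48 h overlapped. The log2 change was -5.29 ± 0.64 at 12 h against 0 h (edgeR adjusted p = 0.00166) and 4.38 ± 0.62 at 48 h against 12 h (adjusted p = 0.00222), and -0.92 ± 0.54 at 48 h against 0 h (adjusted p = 0.346). Both calls held in each of the 9 fits that left out 1 library. Over 15 alternative settings the adjusted p ran from 3.93e-15 to 0.146 and from 1.07e-10 to 0.156, with the highest value where like libraries were summed.

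Of the 3 members behind this group, 2 were called. MS.gene004925 (chromosome 1.4, 63194394 to 63196375) stood at 1.32, 2.56 and 2.3 FPKM at 0 h and at 0.932, 1.32 and 1.27 at 48 h, and had no count in any 12 h library. Against a floor of 3 counts per library it was at least 47.1-fold lower at 12 h than at 0 h (adjusted p = 0.00552) and at least 27.9-fold higher at 48 h than at 12 h (adjusted p = 0.00496). MS.gene88818 (chromosome 1.2, 63525275 to 63525608) stood at 4.17, 5.60 and 7.88 FPKM at 0 h, at 0.563, 0.499 and 0.416 at 12 h and at 3.87, 3.19 and 0.949 at 48 h, with log2 changes of -3.90 ± 0.73 (adjusted p = 0.0223) and 2.84 ± 0.70 (adjusted p = 0.0402). The remaining gene, MS.gene062216 on chromosome 1.1, had the same low at 12 h (0.067, 0 and 0.109 FPKM against 2.45, 4.73 and 3.22 at 0 h) without a call (adjusted p = 0.122). The calls of MS.gene004925 held in all 9 fits without 1 library. The first call of MS.gene88818 was lost without 12 h replicate 1, 2 or 3 (adjusted p from 0.0735 to 0.101), and its second without 0 h replicate 2, any 12 h library or 48 h replicates 1 or 2 (0.0516 to 0.132). Of 18 alternative settings, 12 kept the first call and 6 the second. The second was lost with library totals alone as scaling too.

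Peroxidase 55 showed the same course at a higher level. Its summed copies on chromosome 7 stood at 150.2, 60.9 and 168 FPKM at 0 h, at 39.7, 50.4 and 38.1 at 12 h, and at 192, 71.4 and 251 at 48 h. The 12 h libraries were the lowest of all, and replicate 2 was the lowest at both other times. The log2 change was -2.01 ± 0.50 at 12 h against 0 h (edgeR adjusted p = 0.0317) and 2.49 ± 0.51 at 48 h against 12 h (adjusted p = 0.0107). The first call was lost with library totals alone as scaling and in 6 of 9 fits that left out 1 library, namely 0 h replicates 1 and 3, each 12 h replicate and 48 h replicate 1 (adjusted p from 0.0515 to 0.117). The second held in all 9.

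The peroxidase 55 genes did not contribute alike. MS.gene53782 (chromosome 7.2, 70421291 to 70425568) fell from 38.8, 14.0 and 59.5 FPKM at 0 h to 3.07, 3.90 and 3.38 at 12 h, and stood at 20.1, 27.0 and 24.5 at 48 h. Its log2 changes were -3.85 ± 0.56 (adjusted p = 0.00957) and 3.23 ± 0.54 (adjusted p = 0.0115), calls that were lost without 12 h replicate 1 (0.053) and without 12 h replicate 1 or 2 (0.0503 to 0.053), respectively. MS.gene071284 (chromosome 7.1, 68383101 to 68387567) stood at 1.17, 12.1 and 3.28 FPKM at 0 h, at 0, 0.200 and 0 at 12 h and at 25.7, 15.9 and 39.4 at 48 h. Its 3 times did not overlap, and it rose by 8.94 ± 1.79 on the log2 scale from 12 h to 48 h (adjusted p = 0.0201), while its change at 12 h against 0 h was -6.61 ± 1.64 (adjusted p = 0.0564). The rise was lost without 12 h replicates 1 or 3 or 48 h replicates 1 or 3 (0.0513 to 0.0642). The 2 most abundant copies, MS.gene060053 and MS.gene040455 on chromosome 7.2, had log2 changes of -1.41 ± 0.68 and -1.62 ± 0.72 at 12 h against 0 h and of 2.19 ± 0.69 and 1.65 ± 0.72 at 48 h against 12 h, none of which passed (adjusted p from 0.0838 to 0.277).

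**Figure D4:**
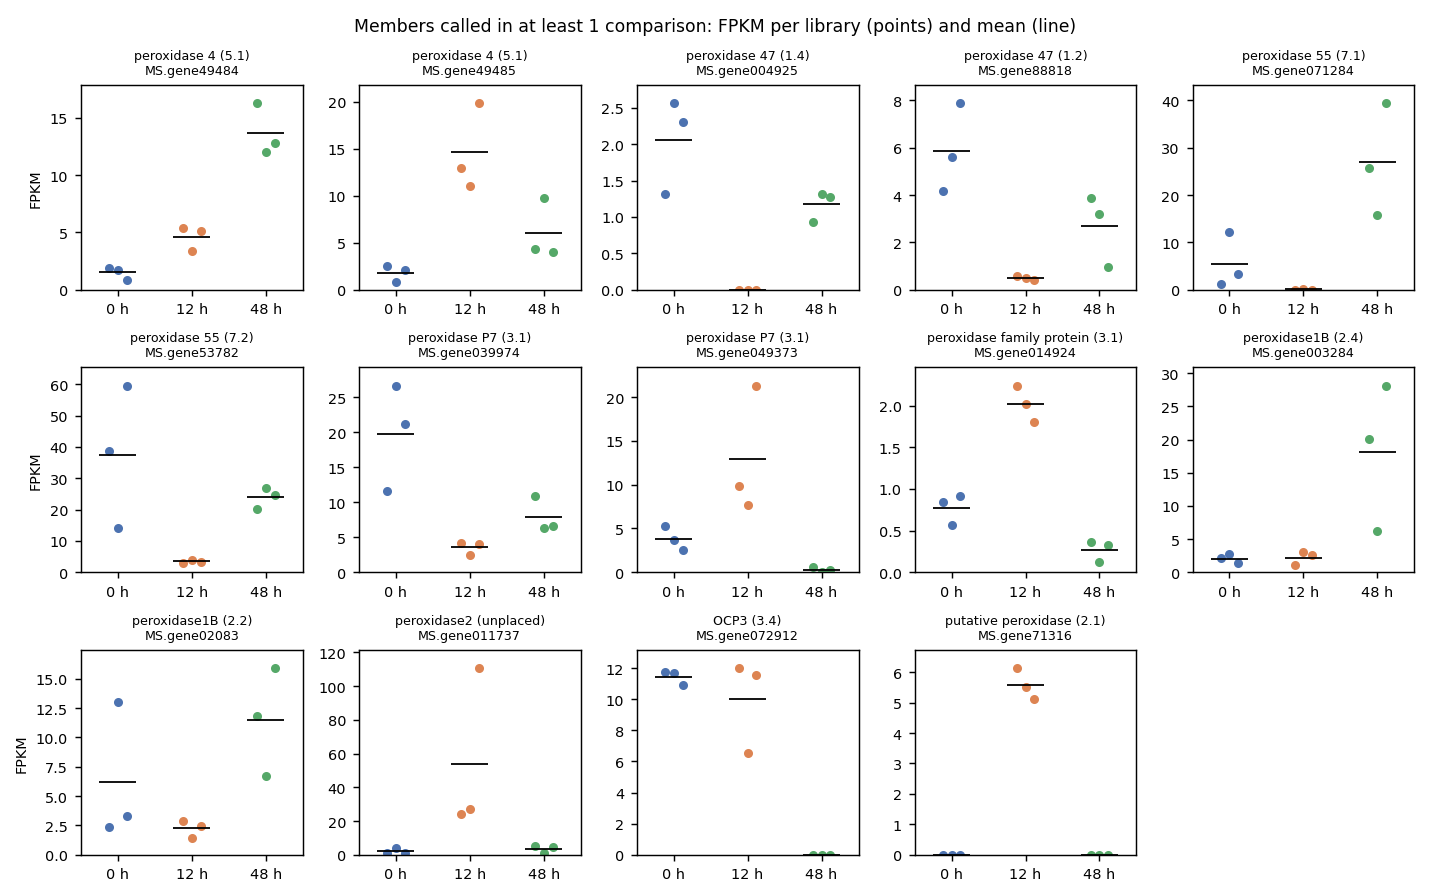
Points give the FPKM of each library (y axes, linear, 1 scale per panel) at 0, 12 and 48 h (x axes) for the 14 members called in at least 1 comparison, with the mean of the time as a line and the chromosome copy in brackets. Peroxidase 47 and peroxidase 55 genes are at or near 0 at 12 h, peroxidase2 MS.gene011737 is high in the 12 h libraries with 111 FPKM in replicate 3, and the OCP3 gene MS.gene072912 is at 0 in all 48 h libraries.

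A row of peroxidase genes on chromosome 2 held 22 members in the same order on each of the 4 copies, all on the minus strand and within 39.5 to 88.1 kb per copy. The order of the members is peroxidase 15 or peroxidase1A, a gene described only as peroxidase, peroxidase 15 isoform X1, peroxidase1B, peroxidase family protein and, on copies 2.1 and 2.3, peroxidase E5. Further peroxidase E5 and A2 genes of the row, with those for E5 on copy 2.2, did not pass the filter. The names 1A and 1B come from alfalfa itself, and E5 is an isozyme known from horseradish. The row gave 25.6%, 23.7% and 14.1% of the peroxidase FPKM in the 0 h libraries, 31.9%, 40.3% and 29.3% at 12 h and 35.9%, 30.4% and 32.8% at 48 h. Every library of 12 and 48 h was above every library of 0 h in this share, which was seen in the data and not tested.

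Neighbours in the row differed in their course. Summed over the 4 copies, the first place stood at 30.2 ± 11.9 FPKM at 0 h, 28.2 ± 1.13 at 12 h and 26.4 ± 3.65 at 48 h (SD, n = 3 each). Peroxidase 15 isoform X1 stood at 95.1, 52.2 and 43.3 FPKM at 0 h, at 182, 220.0 and 125 at 12 h and at 123, 72.3 and 123 at 48 h. Its 12 h libraries lay above all of 0 h, but the log2 change of 1.07 ± 0.33 did not pass (edgeR adjusted p = 0.0642). Its most abundant copy, MS.gene74558 on chromosome 2.3, stood at 49.1, 18.7 and 23.6 FPKM at 0 h, at 91.5, 106 and 76.7 at 12 h and at 29.7, 25.4 and 31.2 at 48 h, with a log2 change of 1.23 ± 0.35 at 12 h against 0 h (adjusted p = 0.0835). In contrast, the copy MS.gene02084 on 2.2 was at or near 0 in 0 h replicates 1 and 3 and in 12 h replicate 3 (0.0849, 0 and 0 FPKM) and at 6.70 to 42.2 in the other libraries. The second place stood at 27.2, 102 and 18.6 FPKM at 0 h, at 69.9, 134 and 90.0 at 12 h and at 50.1, 31.1 and 21.1 at 48 h, where 0 h replicate 2 lay within the range of 12 h (adjusted p = 0.575).

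Peroxidase1B rose between 12 h and 48 h. Its summed copies stood at 8.76, 36.1 and 7.13 FPKM at 0 h, at 18.4, 16.5 and 18.5 at 12 h and at 75.3, 30.5 and 95.3 at 48 h. The 48 h libraries were above all of 12 h, but 48 h replicate 2 was below 0 h replicate 2. The log2 change was 2.4 ± 0.63 at 48 h against 12 h (edgeR adjusted p = 0.0275) and 2.03 ± 0.62 at 48 h against 0 h (adjusted p = 0.0867). Among its 4 genes MS.gene003284 (chromosome 2.4, 59714213 to 59717296) rose from 1.06, 3.01 and 2.54 FPKM at 12 h to 20, 6.24 and 28.1, a log2 change of 3.44 ± 0.65 (adjusted p = 0.0162). MS.gene02083 on 2.2 rose from 2.87, 1.46 and 2.45 to 11.8, 6.69 and 15.9, or by 2.77 ± 0.70 (adjusted p = 0.0439). Of the other copies, MS.gene74559 was higher in all 48 h libraries than in any of 12 h. By FPKM, MS.gene03132 was so in 48 h replicates 1 and 3 alone, and on TMM-scaled counts in all 48 h libraries.

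The rise of peroxidase1B rested on single libraries. For the summed copies the call was lost without any 1 of the 12 h libraries and without 48 h replicates 1 or 3 (adjusted p from 0.0746 to 0.0913), and with library totals alone as scaling, where that of MS.gene02083 was lost too. For MS.gene003284 it was lost without any 1 of the 12 h libraries or 48 h replicate 1 (0.0501 to 0.0574), and for MS.gene02083 without any 1 of the 12 h libraries or 48 h replicates 1 or 3 (0.106 to 0.145). The most abundant copy, MS.gene03132 on 2.1, stood at 2.19, 4.84 and 1.27 FPKM at 0 h and 31.2, 7.27 and 36.3 at 48 h, with a log2 change of 3.23 ± 0.68 at 48 h against 0 h that did not pass (adjusted p = 0.0707).

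Peroxidase E5, last among the members of the row, rose at 12 h as a group. Its summed copies take in 14 genes of chromosome 2, of which 2 passed the filter, and stood at 1.34, 0.186 and 0.385 FPKM at 0 h, at 6.89, 8.20 and 4.39 at 12 h and at 2.97, 3.08 and 1.55 at 48 h. The 3 times did not overlap. The log2 change was 3.06 ± 0.71 at 12 h against 0 h (edgeR adjusted p = 0.0249), and that call was lost without 0 h replicate 3 or 12 h replicates 1 or 2 (0.072 to 0.0836). Neither member was called. MS.gene03134 stood at 0.241, 0 and 0 FPKM at 0 h and at 6.70, 4.37 and 4.08 at 12 h (adjusted p = 0.168). MS.gene74561 stood at 0.719, 0 and 0.385 at 0 h and at 0, 3.82 and 0 at 12 h (adjusted p = 0.789). The peroxidase family protein genes of the row stood at 11.7 ± 4.56, 26.9 ± 2.4 and 24.2 ± 16.6 FPKM without a call, the widest spread being at 48 h, where replicate 2 stood at 5.31 against 31.0 and 36.3.

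**Figure D5:**
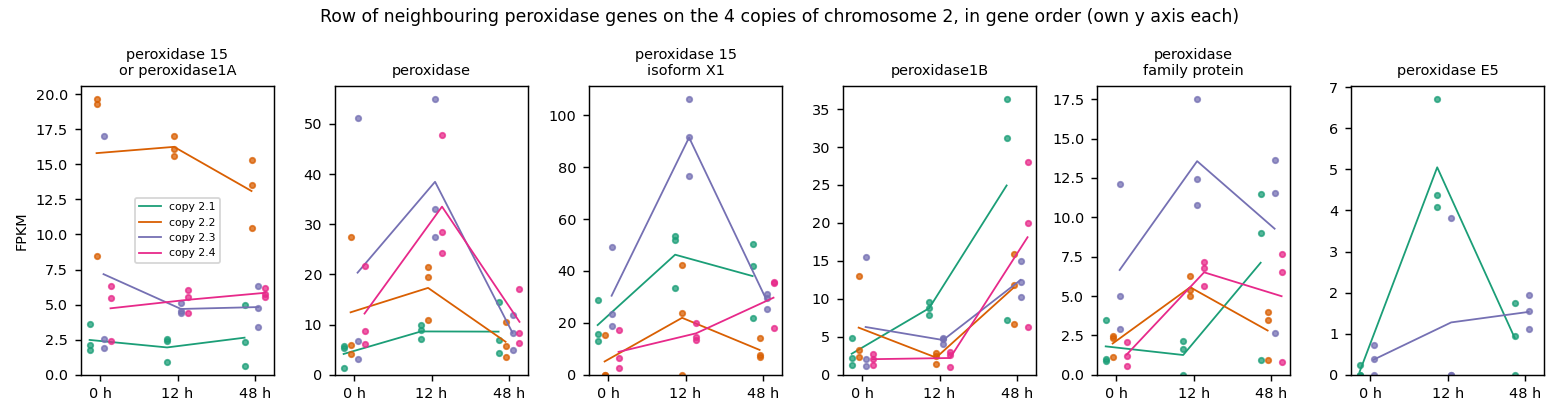
Panels follow the order of the row of peroxidase genes on chromosome 2. Points are FPKM per library (y axes, linear, 1 scale per panel) at 0, 12 and 48 h (x axes), coloured by chromosome copy, and lines join the means of the 3 libraries. The mean of peroxidase1B is highest at 48 h on all 4 copies, and that of peroxidase 15 isoform X1 at 12 h on copies 2.1, 2.2 and 2.3 and at 48 h on copy 2.4.

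Peroxidase 4 held 12 members on chromosomes 3 and 5. A pair of neighbouring genes was called in different comparisons, and the difference between their courses was not tested. MS.gene49485 (chromosome 5.1, 57758876 to 57762918) stood at 2.48, 0.858 and 2.05 FPKM at 0 h, at 13, 11 and 19.8 at 12 h and at 4.30, 9.77 and 4.04 at 48 h. It rose by 2.62 ± 0.59 on the log2 scale at 12 h (edgeR adjusted p = 0.0408) and was higher at 48 h than at 0 h in all libraries, without a call (1.82 ± 0.57, adjusted p = 0.169). The gene next to it, MS.gene49484 (57769356 to 57774420), stood at 1.89, 1.75 and 0.871 FPKM at 0 h, at 5.40, 3.41 and 5.09 at 12 h and at 16.3, 12.0 and 12.8 at 48 h, so that its 3 times stood one above the other. It was the only member called higher at 48 h against 0 h, by 3.27 ± 0.39 (adjusted p = 0.0253), and was also higher at 48 h than at 12 h, by 2.02 ± 0.37 (adjusted p = 0.0156). Its change at 12 h against 0 h was 1.25 ± 0.37 (adjusted p = 0.0911).

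These changes of single genes did not show in the sums. The 8 peroxidase 4 genes of chromosome 5 stood at 35.2 ± 31.0, 57.5 ± 14.0 and 51.3 ± 6.63 FPKM and the 4 of chromosome 3 at 47.3 ± 36.4, 50.0 ± 5.17 and 73.6 ± 34.9, without a call (adjusted p from 0.325 to 0.791). The call of MS.gene49485 was kept only without 48 h replicate 2, and was lost in the other 8 fits without 1 library (0.0549 to 0.105). Those of MS.gene49484 were lost without 12 h replicates 1 or 2 or 48 h replicates 1 or 3 at 48 h against 0 h (0.0545 to 0.0712), and without 12 h replicates 1 or 2 or 48 h replicate 1 at 48 h against 12 h (0.0586 to 0.0716). With only the 6 libraries of 0 and 48 h in the fit, the first of these had an adjusted p of 0.112.

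Peroxidase P7, named after a turnip isozyme, had 16 members among 50 matching genes. Its genes on chromosome 3 differed in their course. MS.gene039974 (chromosome 3.1, 59100200 to 59101867) fell from 11.6, 26.6 and 21.2 FPKM at 0 h to 4.21, 2.47 and 4.03 at 12 h and stood at 11, 6.27 and 6.55 at 48 h. Its log2 change at 12 h against 0 h was -2.87 ± 0.46 (edgeR adjusted p = 0.0134), a call that was lost without 12 h replicates 1 or 2 (0.0602 to 0.0663). Its neighbour MS.gene87651 (59080348 to 59082015) stood at 4.18, 19.5 and 10.6 FPKM at 0 h and at 3.36, 1.60 and 1.98 at 12 h, with a change of -2.70 ± 0.67 that did not pass (adjusted p = 0.0574). Further along, MS.gene049373 (chromosome 3.1, 75551940 to 75556016) stood at 5.23, 3.72 and 2.55 FPKM at 0 h, at 9.81, 7.64 and 21.3 at 12 h and at 0.627, 0 and 0.208 at 48 h. Its change at 12 h against 0 h was 1.39 ± 1.08 (adjusted p = 0.533). It fell by 5.05 ± 1.27 on the log2 scale from 12 h to 48 h (adjusted p = 0.0427), and the call was kept only without 48 h replicate 2 (0.0547 to 0.126 in the other 8 fits). The gene next to it, MS.gene049372, had no count in any 12 h library and stood at 0, 0.635 and 1.30 FPKM at 0 h and at 1.14, 0 and 1.05 at 48 h, without a call.

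A split of the P7 genes of chromosome 3 at 75 Mb, made after their values were seen, describes the pattern and was not tested. The 3 members before it summed to 39.1 ± 21.5, 8.24 ± 2.11 and 16.1 ± 4.24 FPKM at 0, 12 and 48 h, and the 6 past it to 53.0 ± 26.5, 105 ± 36.5 and 25.1 ± 17.4. The sum of all 19 matching P7 genes of the chromosome had log2 changes of -0.17 ± 0.45, -1.04 ± 0.46 and -0.87 ± 0.45 in the 3 comparisons, without a call (adjusted p = 0.851, 0.207 and 0.204). The P7 groups of chromosomes 2 and 5 were not called either.

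Peroxidase2, another name from alfalfa, had a peak at 12 h. MS.gene011737, on an unplaced contig (120479 to 123201), stood at 1.29, 4.26 and 1.30 FPKM at 0 h, at 24.0, 26.9 and 111 at 12 h and at 5.05, 1.05 and 4.49 at 48 h. The 12 h libraries lay above all others, and replicate 3 stood far above the other 2. The gene rose by 4.19 ± 0.93 on the log2 scale at 12 h (edgeR adjusted p = 0.0404) and fell by 3.50 ± 0.90 from 12 h to 48 h (adjusted p = 0.0464). MS.gene44482 on chromosome 8.1 (25775287 to 25778093) had the same shape, with 2.57, 4.38 and 1.05 FPKM at 0 h, 13.6, 15.1 and 56.7 at 12 h and 2.2, 0.136 and 2.92 at 48 h. Its changes did not pass among genes (3.06 ± 1.06, adjusted p = 0.14, and -3.60 ± 1.09, adjusted p = 0.0726). Among summed copies this gene is a group of its own, so no other copy was added. The same counts passed there at 48 h against 12 h (-3.54 ± 1.02, adjusted p = 0.0383), in a test over 18292 groups. Whether these 2 genes share reads was not tested.

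For MS.gene011737 both calls depended on single libraries. The first was kept only without 0 h replicate 2 or 48 h replicate 2 and lost in the other 7 fits without 1 library (adjusted p from 0.0632 to 0.109), and the second was kept only without 0 h replicate 2 (0.0568 to 0.127 in the others). Taken as a group of its own among summed copies it was called at 12 h against 0 h (4.15 ± 0.89, adjusted p = 0.017) except without 0 h replicates 1 or 3 (0.0599 to 0.061), and at 48 h against 12 h (adjusted p = 0.0225) except without 12 h replicate 3 or 48 h replicates 1 or 3 (0.0543 to 0.0663). The call of MS.gene44482 as a group of its own was lost without 0 h replicate 1, any 12 h library or 48 h replicates 1 or 3 (0.0555 to 0.121).

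Among the remaining peroxidases, calls were made for 2 genes of low level. A putative peroxidase on chromosome 2.1 (MS.gene71316, 21980737 to 21982302) stood at 6.13, 5.5 and 5.11 FPKM in the 12 h libraries and had no count in the 6 others. It passed the FPKM filter through the 12 h libraries alone, so a higher value at 12 h was a condition of its being tested, and its tests are no support for a change. It was at least 75.8-fold higher at 12 h than at 0 h (edgeR adjusted p = 0.0133) and at least 72.6-fold lower at 48 h than at 12 h (adjusted p = 0.0101). The sum over all 22 genes of this description on chromosome 2 showed no such step, with 0.521, 6.16 and 11.9 FPKM at 0 h and 11.7, 10.2 and 11.3 at 12 h (log2 change -0.17 ± 0.86, adjusted p = 0.926). These are not all copies of MS.gene71316, so the sum cannot tell whether reads moved between its copies. The first call was lost without any 1 of the 12 h libraries (0.0537 to 0.0789) and the second without 12 h replicates 1 or 2 (0.0564 to 0.0571).

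A peroxidase family protein gene on chromosome 3.1 (MS.gene014924, 83444835 to 83447640) stood at 0.839, 0.568 and 0.920 FPKM at 0 h, at 2.24, 2.01 and 1.81 at 12 h and at 0.359, 0.120 and 0.331 at 48 h. Like MS.gene71316, and as the only other of the 93 members, it reached an FPKM of 1 at 12 h alone, so that its peak there was a condition of being tested. It fell by 2.4 ± 0.60 on the log2 scale from 12 h to 48 h (edgeR adjusted p = 0.0422), and its summed copies fell by 1.95 ± 0.55 (adjusted p = 0.0359). That group of 6 genes was tested because of this member alone, so the same condition holds for it. Neither test is support for a change. The gene's call was kept only without 0 h replicates 2 or 3 (0.0501 to 0.127 in the other 7 fits), and that of the summed copies was lost without any 1 of the 12 h or 48 h libraries (0.0551 to 0.114). Peroxidase 31, peroxidase A2, peroxidase N, cationic peroxidase 1 and cationic peroxidase 2, the last pair being names known from peanut, had no member called by edgeR. A single one of these genes, a peroxidase 31 at 48 h against 12 h, had an unadjusted p under 0.05, and DESeq2 called 1. The gene for cationic peroxidase 1 (MS.gene045851) stood at 15.5 and 16 FPKM in 12 h replicates 1 and 2 but at 1.93 in replicate 3, and at 0 to 4.13 at the other times. The 4 genes described as peroxidase and acid phosphatase summed to 27.4 ± 12.3, 19.5 ± 1.68 and 27.6 ± 1.05 FPKM, with adjusted p-values from 0.0648 to 0.917 over summed copies. One of them, MS.gene27439, stood at 28.7, 1.0 and 23.1 FPKM at 0 h and at 2.61 to 4.16 at 12 h, with 0 h replicate 2 below all later libraries.

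OCP3 was lower at 48 h. In Arabidopsis this regulator is known from plants that lack it, which express a peroxidase reporter gene and resist necrotrophic fungi. The 5 genes on chromosome 3 summed to 67.9, 46.8 and 74.6 FPKM at 0 h, 81.3, 82.3 and 97.1 at 12 h and 30.4, 29.2 and 35.5 at 48 h. All 48 h libraries lay below all others. The log2 change was -0.97 ± 0.22 at 48 h against 0 h (edgeR adjusted p = 0.0375), -0.99 ± 0.22 at 48 h against 12 h (adjusted p = 0.0156) and 0.02 ± 0.22 at 12 h against 0 h (adjusted p = 0.971). It was the only called group at 48 h against 0 h, where edgeR called no summed group of peroxidases. Of all 32 groups 8 had an unadjusted p under 0.05 there, and DESeq2 called 5. That call was lost with only the 6 libraries of those times in the fit, and without 0 h replicates 1 or 3, 12 h replicates 1 or 2 or 48 h replicates 1 or 3 (0.0691 to 0.136), and the other was lost without 48 h replicate 1 (0.0588).

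A single OCP3 gene had no count at 48 h. MS.gene072912 (chromosome 3.4, 93417835 to 93420918) stood at 11.7, 11.7 and 10.9 FPKM at 0 h and at 12.0, 6.54 and 11.6 at 12 h, and had no count in any 48 h library. It was at least 175-fold lower at 48 h than at 0 h (adjusted p = 0.00838) and at least 117-fold lower than at 12 h (adjusted p = 0.00156). The first call was lost without 12 h replicate 1 (0.057) and with only the 6 libraries of those times in the fit, and the second held in all 9 fits without 1 library. The most abundant copy, MS.gene81087, stood at 28.2, 21.3 and 22.2 FPKM at 0 h and at 12.3, 10.6 and 16.2 at 48 h, a log2 change of -0.81 ± 0.25 that did not pass (adjusted p = 0.158).

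Genes for enzymes that make hydrogen peroxide, or that share substrates and products with class III peroxidases, were counted by description. Of all tested genes, 4.29% fell and 1.58% rose at 12 h against 0 h, and 6.96% rose and 3.61% fell from 12 h to 48 h. At 48 h against 0 h 0.647% rose and 0.497% fell. These shares stand beside each count. Among 8 tested respiratory burst oxidases, which start the making of peroxide at the cell surface, edgeR called none against 0 h, and 1 fell from 12 h to 48 h. Their median log2 change at 12 h against 0 h was -0.07, and against 0 h an unadjusted p under 0.05 and a call by DESeq2 were reached by 0 at 12 h and by 1 at 48 h. Of 29 superoxide dismutases, which turn superoxide into peroxide, 2 fell at 12 h. Of 22 copper amine and polyamine oxidases, which release peroxide, 4 fell at 12 h and 5 rose from 12 h to 48 h. Primary amine oxidase MS.gene25792 went from 28.2 ± 10.4 to 5.71 ± 0.710 and 29.1 ± 5.99 FPKM, with log2 changes of -2.72 ± 0.36 (adjusted p = 0.00738) and 2.79 ± 0.37 (adjusted p = 0.00525). Germin-like proteins, some of which make peroxide as oxalate oxidases or superoxide dismutases, had 3 of 12 higher and 1 lower at 12 h, and 2 higher at 48 h against 0 h. From 12 h to 48 h 2 of 12 fell. The median log2 change of the 12 tested genes at 12 h against 0 h was -0.28. The summed FPKM of all 113 matching genes was 92.6 ± 25.1 at 0 h, 1369.7 ± 74.0 at 12 h and 364 ± 128 at 48 h. Subfamily 3 member 1 on chromosome 8.3 (MS.gene07904), of smallest adjusted p, rose by 4.54 ± 0.46 on the log2 scale at 12 h (adjusted p = 0.00285), from 17.2 ± 6.0 to 527 ± 15.3 FPKM. The copy on 8.2 (MS.gene000551) stood higher, at 18.7 ± 7.64 and 624 ± 25 FPKM.

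Of 169 tested genes of monolignol synthesis, which make the phenolic substrates, 3 rose and 19 fell at 12 h against 0 h, and 31 rose and 8 fell from 12 h to 48 h (median log2 changes -0.28 and 0.41). At 48 h against 0 h 4 rose and 1 fell. Caffeoylshikimate esterase MS.gene012327 went from 6.57 ± 1.55 to 0.129 ± 0.0709 and 19.8 ± 6.22 FPKM, with log2 changes of -5.92 ± 0.53 (edgeR adjusted p = 0.00188) and 7.54 ± 0.56 (adjusted p = 0.00111). Laccases, which oxidise monolignols without peroxide, had 1 of 8 lower at 12 h and the same gene, laccase-4 (MS.gene33479), higher at 48 h against 12 h. Of 39 dirigent proteins, which guide the coupling of phenolic radicals, 5 fell at 12 h and 6 rose to 48 h, and of 30 extensins, wall proteins that peroxidases cross-link, 3 fell and 4 rose in these comparisons. Among enzymes that remove peroxide inside the cell, 3 of 25 ascorbate peroxidases, 2 of 21 peroxiredoxins and 1 of 4 catalases fell at 12 h. From 12 h to 48 h 1 ascorbate peroxidase fell and 1 peroxiredoxin rose. None of 10 glutathione peroxidases was called by edgeR in any comparison. Among these, 3, 1 and 4 had an unadjusted p under 0.05 in the 3 comparisons, and DESeq2 called 1, 0 and 1.

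Markers of other cells were read beside these values, and their part in the results was not tested. Of 8 tested genes of the cellulose synthase subunits CESA4, CESA7 and CESA8, which mark xylem and secondary walls, 1 fell at 12 h and rose from 12 h to 48 h, a CESA8 gene (MS.gene01595) with no count in any 12 h library. The summed FPKM of all 15 matching genes was 5.86 to 23.0 at 0 h, 4.17 to 6.61 at 12 h and 9.0 to 20.1 at 48 h. This sum was lower at 12 h than at 48 h in all libraries, as was that of the mesophyll markers below. Its ranges at 0 h and 12 h overlapped. The sum was highest in 0 h replicate 2 and 48 h replicate 2. In those libraries peroxidase 55 was the lowest of its time. Peroxidase 47 stood at 12.9 FPKM in the first, between the other 0 h libraries. In the second it stood at 8.31, the highest of 48 h. Whether these levels go together was not tested. Of 131 tested mesophyll markers 39 fell at 12 h and 58 rose from 12 h to 48 h. All 193 matching genes summed to 121235 to 191299 FPKM at 0 h, 116710 to 131746 at 12 h and 148344 to 211630 at 48 h. All 34 matching epidermis and cuticle markers summed to 70.8 to 155 at 0 h, 88.4 to 150.4 at 12 h and 100.4 to 159 at 48 h. Of the 17 tested, 2 fell at 12 h. Casparian strip proteins of the root endodermis summed to 1.95 or less in each library, and the 43 leghemoglobin genes of root nodules were at 0 in all 9.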

How the data were processed

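Poly(A) RNA of 9 leaf libraries was sequenced, per the labels' protocols, as paired ends with inserts of 300 ± 50 bp. HISAT and StringTie are named, without version or role, in the submitters' processing notes. What genome build and annotation were used, and how reads matching several copies were treated, is not given in the sources used here. Coordinates are those of the deposited table. The deposited table gives whole-number counts per gene, not normalized, and FPKM values made by the authors, listed as 1e-04 wherever the count is 0 and read here as 0.

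From the counts, edgeR 4.0.16 in R 4.3.3 was run on all 9 libraries with 1 mean per time, TMM scaling and a quasi-likelihood F-test, on genes of FPKM 1 or more in at least 3 libraries. Standard errors are the absolute log2 change over the square root of F. The test was tried on simulated data with 200 of 50878 genes changed, and the common biological coefficient of variation was 0.843 for genes and 0.551 for summed copies. A floor of 3 counts is 0.0534 to 0.0751 CPM, and such limits cover counting error only. Alternatives used DESeq2 1.42.0, limma 3.58.1, other scaling, filters and libraries.

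The members, gene lists and alternatives were chosen with earlier results of these data known. Named are the members called in a comparison, up to 10 per comparison and direction by smallest adjusted p. Named too are the 10 members of highest mean FPKM and, per comparison, the 3 largest changes each way among members of mean FPKM 10 or more in the higher group. Summed copies are named where called or among the 10 of highest level, and for each other list the called member of smallest adjusted p. Other genes were named after their values were seen.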

Additional observations from a re-analysis of the deposited data

How the results depend on the processing

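Of the counts of called members, those under median-of-ratios scaling, library totals alone and an FPKM minimum of 5 stayed within 1.5 times the reported one. For genes, 7 were called at 12 h against 0 h, 2 at 48 h against 0 h and 12 at 48 h against 12 h. DESeq2 called 21, 12 and 24, and limma on log2(FPKM + 1) called 19, 5 and 22. Limma on log2(FPKM + 0.1) called 15 at 12 h against 0 h and 19 at 48 h against 12 h. Without the FPKM filter 4 and 7 were called in these 2 comparisons. Leaving out 1 library at a time gave 1 to 8, 0 to 6 and 2 to 15. For summed copies, 4, 1 and 7 were called as reported, DESeq2 called 9 and 5 in the first and second comparison, and leaving out 1 library gave 2 to 7, 0 to 4 and 2 to 8. The lowest count came without 12 h replicate 1 for genes in all 3 comparisons, and without 48 h replicate 1 for summed copies at 48 h against 12 h. With only the 6 libraries compared, 0 genes and 0 summed copies were called at 48 h against 0 h, with 17 and 6 at an unadjusted p under 0.05. With libraries of like copy use summed edgeR called 0 genes and 0 summed copies in each comparison, with 10, 7 and 11 genes and 4, 3 and 3 summed copies at an unadjusted p under 0.05. Without the OCP3 genes, an alternative chosen after seeing the data, 1 gene and 0 summed copies were called at 48 h against 0 h. Same-numbered libraries did not deviate together (correlations of -0.05 to 0.03, against -0.04 to 0.05 for other pairs), so the numbers do not pair them. With the replicate number as a block 1, 0 and 4 genes and 2, 0 and 3 summed copies were called. The cause of these differences was not tested. For log2 changes of named genes and groups, 517 values kept direction and side of the threshold, 193 lost a call, 14 gained one and none changed sign. Of the medians over the members under alternatives, 13 values had another sign than the reported one or were 0, all of them at 48 h. Depth limits genes of a few counts, whose changes cannot be bounded below the floor.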
